A study of Mus musculus with 8 samples.

Results

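This account compares 2 of the 8 RNA libraries of a study of intrauterine hematopoietic cell transplantation (IUT): recipient (fetal) cells of DC control pups given paternal donor cells (pIUT) and recipient cells of DC control pups given maternal donor cells (mIUT). They are the libraries labelled as fetal cells from the offspring of dams without dendritic cell (DC) depletion, and the clonotype tables of the same 2 samples were used with them. All pups were F1 hybrids of CD11c-DTR dams, and BALB/c sires. The dams are on a C57BL/6 (B6) background, and in them the Itgax promoter drives the receptor for diphtheria toxin. The dams of both groups received saline on embryonic day 13 in place of diphtheria toxin. On embryonic day 14 each fetus received 5000000 bone marrow mononuclear cells into the liver, from B6 mice in mIUT and from BALB/c mice in pIUT. At 1 week of age recipient cells were sorted with an antibody to H2K-d, the BALB/c class I molecule, from mononuclear cells of whole bodies with the lymphoid organs included. Cells of 7 pups were pooled in the mIUT library and cells of 5 pups in the pIUT library. Each side is therefore a single library, no p value is given, and every difference below is a difference between these 2 libraries and not between the conditions.

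The sort limits what the libraries can hold. F1 recipient cells carry H2K-b and H2K-d, B6 donor cells carry H2K-b alone, and BALB/c donor cells carry H2K-d. In the pIUT library BALB/c donor cells and recipient cells therefore cannot be told apart by this antibody. In DC control pups the paper reports more donor cells in bone marrow after pIUT than after mIUT at its earliest time point. The flow cytometry of the study gates recipient cells as positive for both molecules, which would leave out BALB/c donor cells; for the sort before RNA extraction the methods name the H2K-d antibody for recipient cells, and whether that gate was also used is not given in the sources used here. H2-Ea, a class II gene that the BALB/c haplotype transcribes and the B6 haplotype does not, had 339 counts in mIUT and 2728 counts in pIUT, beside 1119 and 5684 counts of H2-Eb1, which both haplotypes transcribe. The ratio of the H2-Ea to the H2-Eb1 count was 0.303 in mIUT, 0.480 in pIUT and 0.401 in the recipient library of DC depleted pIUT. In the library labelled recipient uninjected it was 0.00149, with 27 counts of H2-Ea and 18072 of H2-Eb1. That library goes against its label on this gene, and its values are given below only beside the others. In pooled bulk RNA, fewer cells of a type and less RNA per cell cannot be told apart.

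A hematopoietic graft placed in a fetus meets an immune system that is still being assembled. In mice of this age the thymus is filling the periphery with T cells, B-cell and red-cell production are moving from liver to spleen and marrow, and granulocytes are made in large numbers. T and B cells build their antigen receptors by joining V, D and J gene segments, and terminal deoxynucleotidyl transferase, the product of Dntt, adds bases at the joins that no segment encodes. The CDR3 is the stretch of the receptor that spans this join, and a clonotype here is a line of the deposited receptor table, which joins reads of like CDR3 and segments.

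The largest clonotypes of each library and those shared at the highest level are shown first, as examples of the joins that are compared further on. Each CDR3 is written 5′ to 3′, and capitals mark the bases that lie between the aligned end of V and the aligned start of J; a sequence without capitals has none.
IGKV1-135 with IGKJ1: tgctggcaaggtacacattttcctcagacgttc
IGLV1 with IGLJ1, first form: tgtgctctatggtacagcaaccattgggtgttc
IGLV1 with IGLJ1, other form: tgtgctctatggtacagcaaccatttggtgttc
TRDV4 with TRDJ2: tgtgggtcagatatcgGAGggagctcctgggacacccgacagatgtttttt
TRGV6 with TRGJ1: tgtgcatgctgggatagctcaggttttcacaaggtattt
TRGV1 with TRGJ2, out of frame: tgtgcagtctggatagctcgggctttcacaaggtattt
IGKV14-111 with IGKJ2: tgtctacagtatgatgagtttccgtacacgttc
The next sequences are the 3 largest TRB clonotypes of each library, picked after their values were seen, to show how the joins of this chain look.
TRBV1 with TRBJ1-1, mIUT: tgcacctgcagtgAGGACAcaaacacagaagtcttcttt
TRBV5 with TRBJ1-1, mIUT: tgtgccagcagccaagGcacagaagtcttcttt
TRBV16 with TRBJ2-4, mIUT: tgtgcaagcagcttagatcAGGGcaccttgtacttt
TRBV1 with TRBJ1-1, pIUT: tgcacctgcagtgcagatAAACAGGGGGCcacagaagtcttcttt
TRBV31 with TRBJ2-7, pIUT: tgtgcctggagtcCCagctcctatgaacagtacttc
TRBV19 with TRBJ1-1, pIUT: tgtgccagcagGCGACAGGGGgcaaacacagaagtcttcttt

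The libraries were of similar size, with 41597395 estimated counts in mIUT and 40011434 in pIUT. At least 10 counts were found for 13278 genes in mIUT and 14670 in pIUT. The 10 most abundant genes took 26.4% of all counts in mIUT and 11.6% in pIUT, and the normalization factors were 0.689 and 1.13. Levels are given as counts per 1000000 after this normalization (CPM). A gene was tested where it had at least 10 counts in 1 of the 2 libraries, was called at a difference of 2-fold or more, and was given as a bound against a floor of 3 counts where a library held 3 counts or fewer. The 95% intervals of folds and shares cover counting error only. A bound is the fold at the floor without counting error, and the lower 95% limit of that fold lies below it. For Klrk1 this limit is 247-fold, beside a bound of 304-fold. Of 15745 genes, 5667 (36.0%) were at least 2-fold higher in pIUT and 4263 (27.1%) at least 2-fold lower, so that 63.1% passed 2-fold. The median log2 fold change was 0.20. Scaling by library totals alone would add 0.71 to every log2 fold change, and would give 7615 genes higher and 2694 lower, with 73.9% of the called genes higher in place of 57.1%. With differences of this size in most genes, the members of a list are read below against 36.0% higher and 27.1% lower. In all, 377 genes had at least 100 counts in pIUT and 3 or fewer in mIUT, and 64 genes the reverse. Such genes pass the count minimum through 1 library alone and had to come out as different, so that counts and medians of lists with bounds are descriptions. Exosc6 and Nat10, which encode housekeeping factors of RNA processing, were among them, with 0 and 1 counts in mIUT beside 1497 and 1042 in pIUT, and a count of 0 in mIUT is not read as absence of a transcript. Ptprc, which encodes the leucocyte antigen CD45, was present in both libraries at 459 CPM in mIUT and 227 CPM in pIUT.

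**Figure D1:**
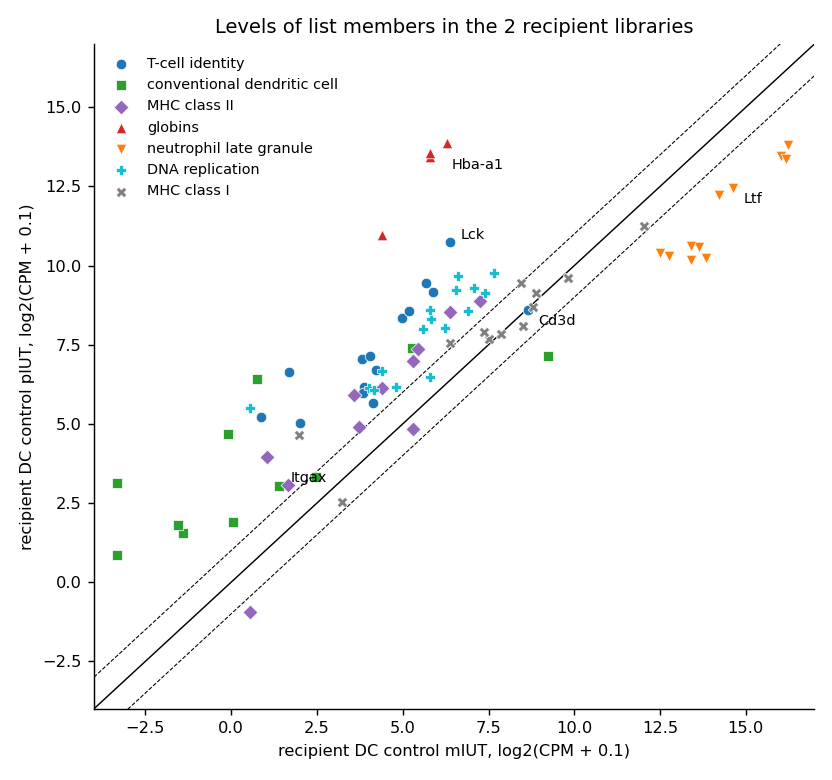
Level of each tested member of 7 gene lists in the recipient libraries, as log2(CPM + 0.1), with mIUT on the horizontal and pIUT on the vertical axis; the solid line marks equal levels and the dashed lines a 2-fold difference. T-cell identity genes lie above the upper dashed line in 14 of 15 cases, and the 11 late neutrophil granule genes all lie below the lower one.

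T-cell genes were higher in the pIUT library as a group. Of 15 genes of T-cell identity and proximal receptor signalling, 14 were at least 2-fold higher in pIUT and 0 were lower, with a median log2 fold change of 3.26 against 0.20 for all genes. Lck, the kinase that starts T-cell receptor signalling (ENSMUSG00000000409, GRCm39 chromosome 4, 129442137 to 129467434), stood at 83.0 CPM in mIUT and 1706 CPM in pIUT, 20.5-fold higher (95% interval 19.7 to 21.4). Zap70, the kinase that binds the phosphorylated receptor, was at 3.14 and 99.1 CPM, a 31.6-fold difference (25.6 to 39.4). Tcf7, a transcription factor of early T cells, was at 51.5 and 706 CPM. The inhibitory surface protein gene Cd5 was at 1.71 and 37.5 CPM. The subunits of CD3, which carry the receptor signal into the cell, did not move as a unit. Cd3e was at 36.1 and 382 CPM and Cd3g at 58.6 and 569 CPM, while Cd3d, next to them on chromosome 9, was at 399 CPM in mIUT and 386 CPM in pIUT. In the recipient library of DC depleted pIUT, Lck was at 435 CPM and Cd3e at 88.4 CPM, and in the library labelled uninjected at 92.8 and 97.3 CPM.

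Genes of developing thymocytes were all on the same side. The 12 members of this list were at least 2-fold higher in pIUT, with a median log2 fold change of 2.74. Ptcra, which encodes the surrogate alpha chain of immature thymocytes, was at 3.94 CPM in mIUT and 71.4 CPM in pIUT, and the coreceptor gene Cd8a was at 31.2 and 268 CPM. Cd8b1, the partner of Cd8a, was 4.03-fold higher (3.83 to 4.25) and Cd4 4.41-fold higher (3.93 to 4.96). Satb1, a chromatin organizer of thymocytes, was at 94.4 and 553 CPM. Tox, a transcription factor of thymic selection, was 19.3-fold higher (14.9 to 25.5). Notch3, a receptor that is active in early thymocytes, had 0 counts in mIUT and 291 in pIUT, at least 61.6-fold higher against the floor. The highest level of these genes in the other recipient libraries was that of Satb1, at 87.3 CPM in DC depleted pIUT and 91.0 CPM in the library labelled uninjected.

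Receptor recombination genes were split. Of 8 members, 3 were at least 2-fold higher in pIUT and 0 lower, and the median of 0.29 lay near that of all genes. The 3 were the lymphocyte-specific members: Rag1 and Rag2, which cut the receptor genes, and Dntt. Dntt (ENSMUSG00000025014, chromosome 19, 41017714 to 41047964) had 100 counts in mIUT and 4527 in pIUT, 28.7-fold higher (23.6 to 35.4). Rag1 was at 17.7 and 47.96 CPM, a 2.71-fold difference, and Rag2 at 5.44 and 29.4 CPM, a 5.41-fold difference. The general end-joining gene Xrcc4 was at 27.1 and 14.2 CPM. Dntt was at 8.26 CPM in DC depleted pIUT and at 0.227 CPM in the library labelled uninjected.

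Constant regions of the T-cell receptor followed the T-cell list, and all 4 that were found in the table were higher in pIUT. Trbc2 was at 129 CPM in mIUT and 1599 CPM in pIUT, and Trbc1 at 90.5 and 951 CPM. The sequences of these genes are nearly identical, so that the division of reads between them is uncertain. Trdc, the constant region of the delta chain, was 13.3-fold higher (11.9 to 14.9), and Trac, that of the alpha chain, 6.03-fold higher (5.49 to 6.63).

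Regulatory T-cell and checkpoint genes were low in both libraries and higher in pIUT for 11 of the 12 members tested, with 0 lower and a median of 3.22. Of the 11, Ikzf4, Lag3 and Gpr83 had 0 counts in mIUT and passed the count minimum through pIUT alone. Tigit, with 6 and 3 counts, was not tested. Foxp3, the transcription factor that defines regulatory T cells (ENSMUSG00000039521, chromosome X, 7439883 to 7461484), had 31 counts in mIUT and 185 in pIUT, 3.79-fold higher (2.58 to 5.74). Il2ra, the alpha chain of the interleukin 2 receptor, was at 1.499 and 71.8 CPM, and Ctla4, an inhibitory receptor, at 0.453 and 8.17 CPM. Gpr83 had 0 counts in mIUT and 373 in pIUT. Pdcd1, which encodes the inhibitory receptor PD-1, was 7.71-fold higher (6.03 to 10.01). The remaining member, Havcr2, had 58 and 85 counts. Several of these genes, Il2ra among them, are also used by immature thymocytes or activated T cells.

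Most cytotoxic and NK-cell genes were higher in pIUT. Of 12 cytotoxic granule genes, 10 were higher and 1 lower, with a median of 2.78. Of the 10, Gzmc, Gzmk and Gzmm had 0 counts in mIUT and passed the count minimum through pIUT alone. The median rests in part on the bound of Gzmm. The remaining member, Fasl, had 46 and 85 counts, a 1.17-fold difference (0.810 to 1.72). Gzma was at 34.2 CPM in mIUT and 564 CPM in pIUT, and Gzmb at 8.89 and 165 CPM, while Gzmc had 0 and 1016 counts. Granzyme genes are related in sequence, and a share of their reads may be misassigned. The lower member was Srgn, the proteoglycan core of granules in many leucocytes, at 1311 and 303 CPM. Because Srgn is the most abundant member in mIUT, the summed level of the list was nearly the same, at 1460 CPM in mIUT and 1488 CPM in pIUT. Of 13 NK-cell genes 11 were tested, of which 9 were higher and 2 lower. The median of 3.43 is itself a bound, since 4 of the 9 had 3 counts or fewer in mIUT. Ncr1, an activating receptor of NK cells, had 25 counts in mIUT and 2184 in pIUT, and Klrk1 had 0 and 1437, at least 304-fold higher. The lower members were Tyrobp, an adaptor that myeloid cells also use, at 2825 and 561 CPM, and Nfil3 at 102 and 33.5 CPM. The summed level of the list, which is mostly Tyrobp, was lower in pIUT, at 2940.3 CPM in mIUT and 822 CPM in pIUT. For Ncr1 the DC depleted pIUT library had 65.8 CPM, beside 48.4 CPM in pIUT.

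**Figure D2:**
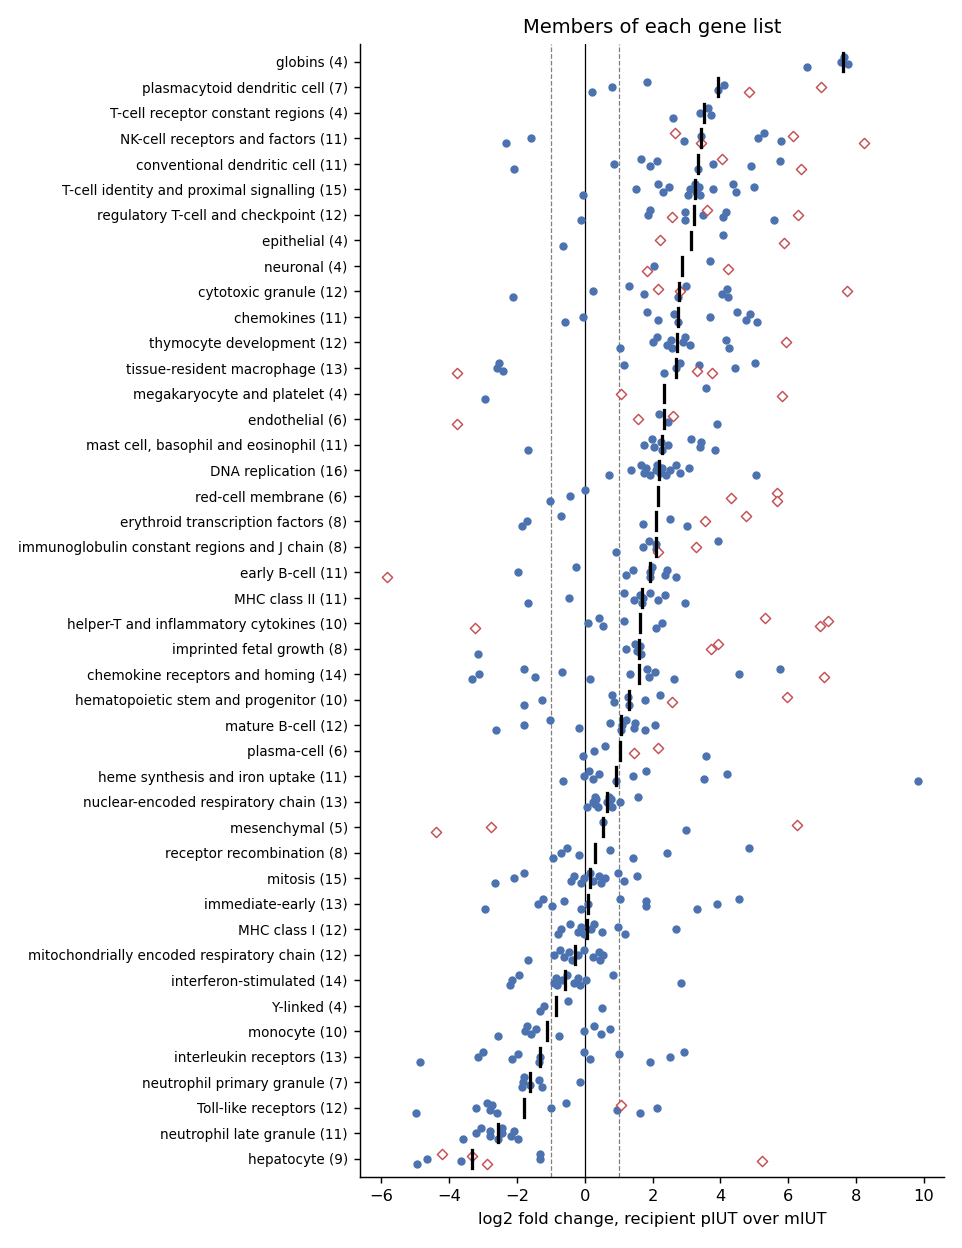
Log2 fold change of recipient pIUT over mIUT for each tested member of the gene lists with at least 4 such members, ordered by the list median (black bar). Filled circles are measured values, open diamonds are bounds against the floor of 3 counts, and the numbers in parentheses count the members tested; medians run from -3.32 in the hepatocyte list to 7.61 in globins.

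B-cell genes differed less than T-cell genes. Of 12 mature B-cell genes tested, 7 were higher in pIUT and 3 lower, with a median of 1.08. Ms4a1, which encodes CD20, was at 17.96 CPM in mIUT and 61.5 CPM in pIUT, and Cd79a, a signalling subunit of the B-cell receptor, at 17.7 and 49.0 CPM. The 3 lower members are also expressed outside the B lineage: Cd24a at 1075 and 309 CPM, Cd37 at 248 and 122 CPM, and the kinase gene Btk at 65.1 and 10.5 CPM. These 3 carry most of the list, so that its summed level was lower in pIUT while its median was higher, at 1468 CPM in mIUT and 659 CPM in pIUT. Pax5, Cr2 and Fcer2a were at 0 counts in both libraries, although Pax5 encodes the factor that maintains B-cell identity. The early B-cell list had 8 members higher and 2 lower of 11, with a median of 1.91. Lef1, at 21.9 and 143 CPM, Myb and Sox4 are shared with thymocytes, and Rag2 is also counted among the recombination genes. The lower members were Erg, with 109 counts in mIUT and 0 in pIUT, and the pre-B-cell gene Igll1, with 43 and 17. Vpreb3, the remaining member, had 70 and 92 counts. Of 8 immunoglobulin constant regions and J chain, 7 were higher and 0 lower. Ighm was at 108 and 462 CPM, 4.27-fold higher (4.11 to 4.43), and Ighd had 14 and 341 counts. Ighg2b, Ighg2c and Ighg3 had 0 counts in both libraries. Among plasma-cell genes, 3 of 6 were higher and 0 lower. Mzb1 was at 10.6 and 125 CPM while Xbp1, which is not limited to plasma cells, was at 161 and 155 CPM.

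Dendritic cells carry the toxin receptor of this design and present antigen to T cells. Of 11 conventional dendritic cell genes, 9 were at least 2-fold higher in pIUT and 1 lower, with a median of 3.33. Itgax, which encodes CD11c (ENSMUSG00000030789, chromosome 7, 127728668 to 127749829), had 73 counts in mIUT and 367 in pIUT, 3.19-fold higher (2.48 to 4.16). Zbtb46, a transcription factor of this lineage, had 0 and 393 counts, at least 83.2-fold higher. Ccr7, the receptor that guides dendritic and T cells to lymph nodes, was at 1.57 and 85.6 CPM, and Irf8 at 38.8 and 170 CPM. Sirpa, which monocytes and neutrophils also express, was lower, at 600 and 140 CPM, and outweighs the others in the summed level of 650 CPM in mIUT and 459 CPM in pIUT. Itgax was at 13.2 CPM in the library of DC depleted pIUT, in which the dam and not the pup was given the toxin, and at 0 in the library labelled uninjected. Of 7 plasmacytoid dendritic cell genes, 5 were higher and 0 lower. Siglech had 0 and 591 counts, and Ly6d, which lymphoid progenitors share, was at 8.82 and 151 CPM.

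Class II and class I antigen presentation differed in size. Of 11 MHC class II genes, 9 were higher in pIUT and 1 lower, with a median of 1.69. The invariant chain gene Cd74 was at 151 CPM in mIUT and 471 CPM in pIUT, and H2-Ab1 (ENSMUSG00000073421, chromosome 17, 34476663 to 34488393) at 82.8 and 368 CPM. Ciita, the factor that switches class II genes on, was the lower member, with 39 and 19 counts. The summed class II level was 408 CPM in mIUT, 1341 CPM in pIUT, 1722 CPM in DC depleted pIUT and 7446 CPM in the library labelled uninjected. Of 12 MHC class I genes, 2 were higher and 0 lower, and the median was 0.08. H2-D1 was at 4223 and 2418 CPM, H2-K1 at 469 and 568 CPM, and B2m, the common light chain, at 897 and 777 CPM. The reads were counted against a B6 reference, and reads of the BALB/c alleles of these polymorphic genes may be counted less completely. The 2 higher members were Psmb10, a subunit of the immunoproteasome, at 83.9 and 189 CPM, and H2-Q7 with 110 and 1118 counts.

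Interferon-stimulated genes showed little difference. Of 14 members, 1 was higher in pIUT and 3 lower, with a median of -0.60 that became 0.12 when libraries were scaled by their totals. Ifit1 was at 65.6 CPM in mIUT and 14.3 CPM in pIUT, 4.58-fold lower (4.19 to 5.02), and Ifi44 was the higher member at 2.06 and 14.9 CPM. Some cytokine genes had 0 counts in mIUT. Ifng (0 and 684 counts), Il6 (0 and 580 counts) and Il17a (0 and 190 counts) were each at least 40.2-fold higher in pIUT against the floor. Tnf was 4.86-fold higher (4.33 to 5.48), and Il1b was at 59.9 and 64.6 CPM. In all, 6 of 10 cytokine genes tested were higher and 1 lower.

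Chemokine genes were higher in pIUT for 9 of 11 members and lower for 0, with a median of 2.76. Ccl3 and Ccl4, which attract monocytes and T cells, were at 2.58 and 1.64 CPM in mIUT and at 58.2 and 55.3 CPM in pIUT. Cxcl2, an attractant of neutrophils, was at 11.7 and 151 CPM. Ccl6, a product of myeloid cells, was the most abundant member, at 450 and 300.1 CPM. The genes of their receptors went both ways. Ccr1 was at 1196 CPM in mIUT and 119 CPM in pIUT, and Cxcr2, the main chemokine receptor of neutrophils, at 995 and 113 CPM, 8.78-fold lower (8.52 to 9.04). Ccr7 and Cx3cr1 were higher, with 45 and 41 counts in mIUT and 3867 and 1523 in pIUT. The receptor list had 8 members higher and 4 lower of 14 and a median of 1.59, while its summed level was lower in pIUT, at 3846 and 1172 CPM. Of 13 interleukin receptor genes, 4 were higher and 7 lower, with a median of -1.31, or -0.60 with scaling by library totals. Il1r2, a decoy receptor of neutrophils, was at 1224 and 42.1 CPM, 29.1-fold lower (27.7 to 30.4), while Il2rg, the shared chain of lymphocyte cytokine receptors, was at 50.6 and 289.9 CPM. Toll-like receptors were lower for 7 of 12 members and higher for 3, and Tlr13 was at 325 and 48.6 CPM.

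The 11 late neutrophil granule genes took 22.3% of all counts in mIUT, the largest share among the gene lists, and 6.16% in pIUT, and all were at least 2-fold lower in pIUT, with a median log2 fold change of -2.55. Ngp, a granule protein of maturing neutrophils (ENSMUSG00000032484, chromosome 9, 110248815 to 110252086), had 2205589 counts in mIUT and 642112 in pIUT, 5.41-fold lower (5.39 to 5.42). S100a8 was at 66692 and 11358 CPM and S100a9 at 73696 and 10610 CPM. Lactotransferrin (Ltf) was at 25183 and 5558 CPM, and Chil3 was 12.1-fold lower (11.9 to 12.2). The labels call the cells mononuclear, and these neutrophil markers are among the most abundant transcripts of both libraries. The same list summed to 12771 CPM in the library labelled uninjected and 8224 CPM in DC depleted pIUT, below both. Of 7 primary granule genes, which are made earlier in neutrophil development, 6 were lower and 0 higher, with a median of -1.61, or -0.90 with scaling by library totals. Mpo, which encodes myeloperoxidase, was at 998 and 416 CPM and Elane, which encodes neutrophil elastase, at 270.1 and 77.2 CPM. For Mpo the DC depleted pIUT library stood above both, at 10458 CPM.

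Monocyte genes were lower for 5 of 10 members and higher for 0, with a median of -1.10 that became -0.39 with scaling by library totals. Lyz2, lysozyme of myeloid cells, was at 35300 CPM in mIUT and 10418 CPM in pIUT, and Itgam, which encodes CD11b, was 5.88-fold lower (5.74 to 6.02). Ly6c2 was at 1147 and 379 CPM, while Csf1r, the receptor that maintains macrophages, was at 87.3 and 105 CPM. Tissue-resident macrophage genes went both ways, with 9 of 13 higher and 4 lower. The complement genes C1qa, C1qb and C1qc had 52, 194 and 68 counts in mIUT and 1772, 3192 and 3469 in pIUT. Adgre1, which encodes F4/80, was 7.02-fold higher (5.99 to 8.28). Slc40a1, the iron exporter, was lower at 889 and 155 CPM, and Hmox1, heme oxygenase, at 69.4 and 11.6 CPM. With Slc40a1 the most abundant member in mIUT, the summed level of the list was 984 CPM in mIUT and 411 CPM in pIUT, opposite in sign to its median of 2.69. Of 11 mast cell, basophil and eosinophil genes, 10 were higher and 1 lower. Prg2, the major basic protein of eosinophils, was at 246 and 1190.2 CPM, the mast cell and basophil gene Ms4a2 had 22 and 502 counts, and Hdc, which makes histamine, was lower at 637 and 198 CPM.

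**Figure D3:**
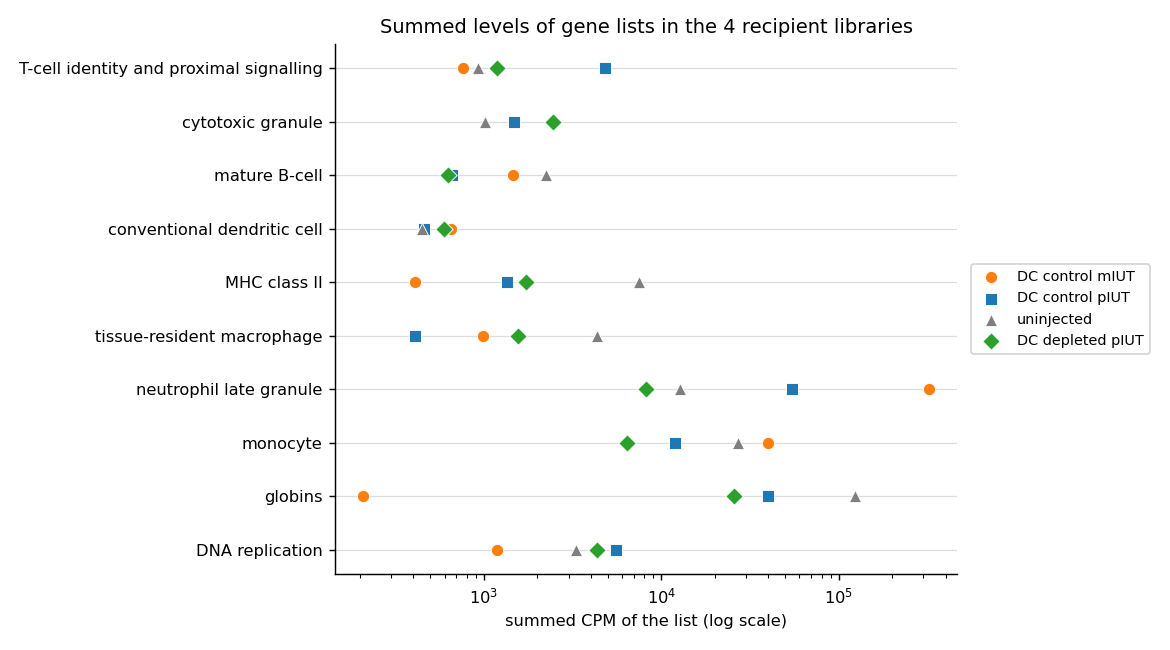
Summed CPM of 10 gene lists, on a log axis, in the 4 recipient libraries, with a point for each library. In the globin list mIUT stands alone at 209 CPM, far below the other 3 libraries, in the late neutrophil granule list it is the highest, and in the cytotoxic list its point (1460 CPM) lies under that of pIUT (1488 CPM).

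Globin genes had the highest list median, at 7.61, while the lists of heme synthesis, erythroid transcription factors and red-cell membrane had medians of 0.93, 2.10 and 2.16. The 4 adult globin genes took 0.0144% of counts in mIUT and 4.51% in pIUT. Hbb-bs (chromosome 7, 103475730 to 103482989) had 2240 counts in mIUT and 671949 in pIUT, 190.5-fold higher (183 to 199). Hba-a1 and Hba-a2 had 1575 counts each in mIUT, and 544702 and 496547 in pIUT. These paralogs are nearly identical, so that the division of reads between them is uncertain. The embryonic globin genes Hbb-y, Hbb-bh1 and Hba-x had at most 5 counts in either library. Alas2, which starts heme synthesis in red-cell precursors (ENSMUSG00000025270, chromosome X, 149330371 to 149353634), had 15 counts in mIUT and 21646 in pIUT, 916-fold higher (555 to 1637). This was the highest value among named protein-coding genes of at least 100 counts, with genes at 0 counts in mIUT ranked by their bound. Of 11 genes of heme synthesis and iron uptake, 5 were higher and 0 lower. Alad was at 4.39 and 81.4 CPM and Cpox at 3.10 and 35.7 CPM, but Urod, in the same pathway, was at 71.9 and 78.7 CPM. Of 13 genes of the red-cell membrane, 6 were tested, of which 3, all at 0 counts in mIUT, were higher and 1 lower. Sptb, Ank1, Rhag, Kel and Add2 had 0 counts in both libraries, and Slc4a1 had 0 and 243. Among erythroid transcription factors, Klf1 had 21 and 10 counts and Gata1 63 and 324, while Nfe2, which myeloid cells also express, was lower at 728 and 203 CPM; through Nfe2 the summed level of this list was lower in pIUT, at 767 and 247 CPM. Summed globins were at 39930.3 CPM in pIUT, 25724 CPM in DC depleted pIUT and 123107 CPM in the library labelled uninjected.

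Progenitor, platelet and growth genes were low throughout. Of 10 hematopoietic stem and progenitor genes, 6 were higher and 2 lower; Cd34 was at 13.4 CPM in mIUT and 45.5 CPM in pIUT, whereas Kit, the stem cell factor receptor, was at 27.3 and 7.88 CPM. Of the platelet genes, Pf4 had 17 and 321 counts, and 5 of 10 were at or below the floor in both. Of 8 imprinted growth genes, 7 were higher and 1 lower, with H19 at 94 and 459 counts, Igf2r at 81 and 353 counts and Mest at 159 and 28 counts.

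The genes of DNA replication were higher in pIUT while those of mitosis were not. Of 16 replication genes, 15 were at least 2-fold higher and 0 lower, with a median of 2.18. Rrm2, which supplies deoxynucleotides, was at 202 CPM in mIUT and 868 CPM in pIUT, and Mcm6, a subunit of the replicative helicase, was 8.35-fold higher (8.04 to 8.68). Pola1, the catalytic subunit of polymerase alpha, had 39 and 2027 counts. Of 15 mitosis genes, 2 were higher and 3 lower, with a median of 0.16. Ccnb1, the mitotic cyclin, was at 192 and 214 CPM, Cdk1 at 144 and 115 CPM, and Mki67, the proliferation marker, was 6.32-fold lower (5.00 to 8.05), with 361 and 90 counts. Immediate-early genes lay near the shares of all genes, with 6 of 13 (46.2%) higher, 3 (23.1%) lower and a median of 0.11. Jun was at 929 and 121 CPM and Fos at 815 and 348 CPM, against Dusp2 at 10.8 and 252 CPM, Nr4a1 at 22.004 and 218 CPM and Junb at 278 and 966 CPM. Of the nuclear genes of the respiratory chain, 11 of 13 were within 2-fold and 2 higher, which became 11 higher with scaling by library totals, and mitochondrially encoded genes made up 0.184% and 0.166% of all counts.

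Markers of tissues outside blood were at low levels in both libraries. Alb, the main product of hepatocytes, had 14 counts in mIUT and 0 in pIUT, Ttr had 0 and 4, and Apoa1 681 and 42. Of 9 hepatocyte-list genes tested, 8 were lower and 1 higher, and the list is dominated by Hp, haptoglobin, at 8947 and 708 CPM, which maturing neutrophils express as well. Afp, made by fetal liver, had 3 and 179 counts. Col3a1, Krt14 and Myh3 were at 0 in both libraries, and Epcam, which thymic epithelium also expresses, had 28 and 747 counts. Over all members, tested or not, the summed counts in mIUT and pIUT were 117 and 1134 for the epithelial list, 322 and 2484 for the endothelial, 167 and 1607 for the mesenchymal, 36 and 698 for the neuronal and 4 and 166 for the skeletal muscle list. The summed level of the epithelial, endothelial, mesenchymal, skeletal muscle and neuronal lists was between 0.139 and 11.2 CPM in mIUT and between 3.68 and 55.0 CPM in pIUT. Y-linked genes were present in both pools, with Eif2s3y at 72.9 and 28.9 CPM and Ddx3y at 29.2 and 20.7 CPM. Xist, which is transcribed from the inactive X of females, was at 5.82 and 8.37 CPM, so that transcripts of both sexes were found in both pools. The part of the cell types and of sex in the differences above was not tested.

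Named protein-coding genes with at least 100 counts, listed or not, were ranked by measured folds and bounds against the floor together. The 10 highest were Alas2, Capn5, Exosc6, Arvcf, Klrk1, Hes1, Scart2, Rgs1, Mpzl2 and Nat10. Hes1, a transcription factor that Notch signalling induces, had 11 counts in mIUT and 5259 in pIUT, 304-fold higher (170 to 608). Scart2, a scavenger receptor of gamma delta T cells, had 0 and 1358. Capn5, a calpain, had 0 and 2122 and was at least 449-fold higher. At the other end were Atrn, Entpd3, Zfyve26, Apoa4, Bcl2l15, Lipg, Tmem67, Plekhg1, Atf7 and the equal pair Srxn1 and Pknox2. Zfyve26 had 1327 and 6 counts, and Atrn 686 and 3.

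The receptor tables held 666 clonotypes with 4043 reads in mIUT and 5488 clonotypes with 48175 reads in pIUT. Per 1000000 gene counts this was 97.2 receptor reads in mIUT and 1204 in pIUT, a 12.4-fold ratio, and the ratio of clonotypes was 8.24. The Hill number of order 1, the number of equally large clonotypes that would give the same diversity, was 528 in mIUT and 3728 in pIUT, a ratio of 7.06. When the pIUT table was subsampled to 4043 reads it kept 2472 ± 23.04 clonotypes (SD over 100 draws). At this equal number of receptor reads the ratio was 3.71 for clonotypes and 3.84 for the Hill number. For T-cell receptor (TCR) chains alone the Hill number was 361 and 3472, and for B-cell receptor (BCR) chains alone 169 and 330.4. No clonotype was dominant, since the largest held 0.866% of reads in mIUT and 0.963% in pIUT. The recipient library of DC depleted pIUT had 3064 clonotypes with 18579 reads, and that labelled uninjected 148 clonotypes with 66848 reads.

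TCR chains made up more of the pIUT clonotypes. They were 65.8% (95% Wilson interval 62.1 to 69.3) of clonotypes in mIUT and 89.2% (88.3 to 89.99) in pIUT. In the recipient library of DC depleted pIUT the TCR share was 58.4%, below that of mIUT, and in the library labelled uninjected 25%. TRB clonotypes numbered 337 of 666 in mIUT, 50.6% (46.8 to 54.4), and 4101 of 5488 in pIUT, 74.7% (73.6 to 75.9). IGK clonotypes were 20.1% (17.3 to 23.3) and 6.21% (5.61 to 6.88), and IGH clonotypes 12.2% (9.89 to 14.9) and 4.14% (3.64 to 4.70). Those of TRA were 10.4% and 10.2%, with intervals that overlap. In reads per 1000000 gene counts every chain was higher in pIUT, from 8.65 to 30.7 for IGH and from 49.3 to 872 for TRB. Of the clonotypes with a TRAV segment, 12 of 69 in mIUT and 116 of 561 in pIUT were joined to a TRDJ segment, a rearrangement made possible by the nesting of the TRD segments within the TRA locus. Clonotypes with a frameshift or stop codon in the CDR3 were 10.5% (8.40 to 13.1) in mIUT and 12.4% (11.6 to 13.3) in pIUT.

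**Figure D4:**
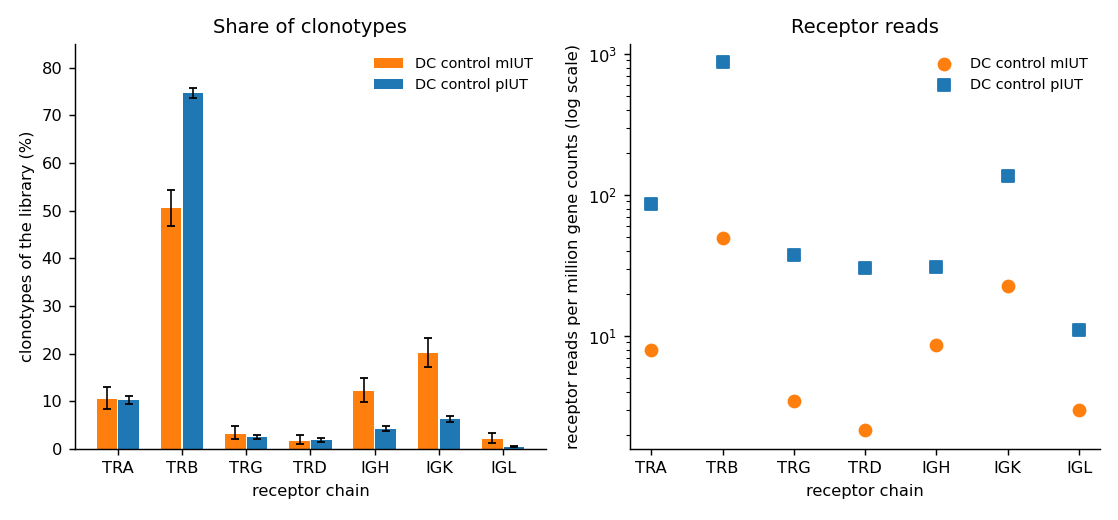
Left, share of clonotypes by receptor chain in each library, with bars from 0 and 95% Wilson intervals; right, receptor reads of each chain per 1000000 gene counts, on a log axis. TRB takes 50.6% of clonotypes in mIUT and 74.7% in pIUT, and in the right panel each chain is higher in pIUT.

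The 95% intervals of gene segment use overlapped in nearly all cases, which at these clonotype numbers does not show equal use. Of 26 TRBV segments, 0 had separate 95% intervals in the 2 libraries, and this held for the 70 IGHV, 82 IGKV and 80 TRAV segments that were seen. The TRBV13 family was the most used, at 15.7% (12.2 to 19.997) of TRB clonotypes in mIUT and 19.04% (17.9 to 20.3) in pIUT. Of 13 TRBJ segments, TRBJ1-2 alone had separate intervals, at 11.6% (8.58 to 15.4) in mIUT and 6.85% (6.12 to 7.67) in pIUT. The most used J segment was TRBJ2-7, at 18.7% and 17.8%. Among heavy chains, the IGHV5 family, which lies near the D segments and is favoured early in life, was at 35.8% (26.2 to 46.7) of 81 clonotypes in mIUT and 25.99% (20.7 to 32.1) of 227 in pIUT. Of the heavy-chain clonotypes with a constant region call, 71 of 72 in mIUT and 209 of 217 in pIUT were IGHM, and the rest were IGHD. With 81 heavy-chain and 69 TRAV clonotypes in mIUT, small and even several-fold differences of use were not detectable at this depth. IGHV3-6, at 6.17% (2.67 to 13.6) in mIUT and 0.881% (0.242 to 3.15) in pIUT, had overlapping intervals.

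T-cell receptor joins held more bases on average in the pIUT library, with broad overlap. In TRB, the bases between V and J, which include the D segment, numbered 6.72 ± 3.86 (SD over 337 clonotypes) in mIUT and 8.12 ± 8.28 (SD over 4101 clonotypes) in pIUT, with medians of 6 and 8. The pIUT values include 12 TRB joins of 95 to 211 bases, and mIUT has none above 17. Without them, which was an alternative chosen after seeing the data, the pIUT mean was 7.74 ± 4.09 (SD over 4089 clonotypes). No base lay between V and J in 6.82% (4.59 to 10.03) of TRB clonotypes in mIUT and in 3.51% (2.99 to 4.12) in pIUT. The mean TRB CDR3 was 38.9 ± 4.37 bases long in mIUT and 40.3 ± 8.76 in pIUT, or 39.96 ± 4.66 without the 12 long joins, and the median was 39 in both. In TRA, with no D segment, joins had 1.07 ± 1.29 and 1.74 ± 3.35 bases, and 50.9% (38.3 to 63.4) and 40.2% (35.8 to 44.7) had none, with overlapping intervals. Without 2 pIUT joins of 42 and 49 bases the TRA mean in pIUT was 1.55 ± 1.69. In TRG the share without a base was 71.4% (50.04 to 86.2) of 21 clonotypes and 37.8% (30.04 to 46.2) of 135. In IGH the order was the other way, with 9 ± 4.80 bases in mIUT and 7.97 ± 5.10 in pIUT. In IGK, 94.8% and 94.1% of joins had no base. Dntt was 28.7-fold higher in the pIUT library, as given above, and its part in these lengths was not tested.

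**Figure D5:**
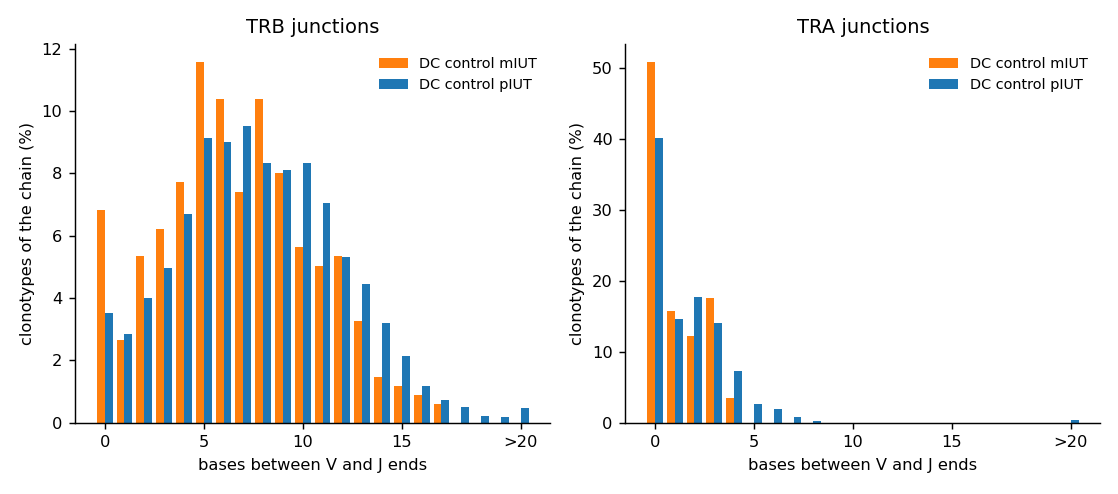
Share of TRB (left) and TRA (right) clonotypes by the number of bases between the aligned ends of V and J, in each library, with values above 20 pooled. In TRB the bar at 0 is 6.82% in mIUT and 3.51% in pIUT, and the pIUT distribution extends to longer joins.

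Counted by chain and CDR3 nucleotide sequence, 103 were found in both libraries, which is 16.04% of 642 sequences in mIUT and 1.95% of 5272 in pIUT. Of these, 65 were IGK sequences, 49.6% of the IGK sequences of mIUT and 20.6% of those of pIUT. TRB gave 15 shared sequences, 4.49% of mIUT and 0.373% of pIUT, and IGH gave 1. TRG gave 9, 50% of its sequences in mIUT and 7.96% in pIUT, IGL gave 6, 46.2% and 24%, and TRD 3, 27.3% and 3.06%. In 79 of the 103 (76.7%) no base lay between V and J. Most shared sequences are IGK or IGL, chains in which 94.1% to 100% of all joins had none in either library. Over all TRB clonotypes the share was 6.82% in mIUT and 3.51% in pIUT, so that the 76.7% follows in large part from the mix of chains. The shared sequences held 22.7% of receptor reads in mIUT and 7.46% in pIUT, and 86 of them were also found in DC depleted pIUT and 17 in the library labelled uninjected.

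Of the sequences shown at the start, the TRDV4 with TRDJ2 join, with 3 bases between the segments, was the largest clonotype in pIUT, with 464 reads, 0.963% (0.880 to 1.05), and had 12 reads in mIUT, 0.297% (0.170 to 0.518). In GRCm39 the segments lie on chromosome 14, TRDV4 at 54312362 to 54312972 and TRDJ2 at 54374236 to 54374294. The TRGV6 with TRGJ1 join, on chromosome 13 (TRGV6 at 19374526 to 19375099, TRGJ1 at 19394513 to 19394572), had 357 reads in pIUT and 25 in mIUT, 0.741% and 0.618%, with overlapping intervals of 0.668 to 0.822 and 0.419 to 0.911. This pair of V segments is used by the receptor of gamma delta T cells that leave the fetal thymus early and settle in mucosal tissues. Both were also present in DC depleted pIUT, with 482 and 469 reads. The first form of IGLV1 with IGLJ1 had 30 reads in mIUT and 147 in pIUT, and the other form 27 and 11. The IGKV1-135 join was the largest of mIUT at 35 reads, 0.866% (0.623 to 1.20), against 61 reads, 0.127%, in pIUT. The out-of-frame TRGV1 join had 27 and 138 reads and the IGKV14-111 join 15 and 110. None of the 6 TRB sequences shown was found in the other library, and the largest had 18 reads in mIUT and 51 in pIUT.

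Trafficked maternal cells of the same pups were sequenced in separate libraries. The library labelled maternal DC control mIUT had 311 counts of H2-Ea beside 498 of H2-Eb1, a ratio of 0.624 that goes against the B6 origin in its label, and the maternal pIUT library had 0 beside 701. Between the libraries so labelled, 45.2% of 14597 genes were at least 2-fold higher in pIUT and 29.1% lower. Of the 12635 genes tested in both comparisons, 2411 were higher in both, 58.8% of the 4097 higher in recipient cells and 46.4% of the 5192 higher in maternal cells; of all 12635 genes, 41.1% were higher and 29.7% lower in maternal pIUT cells. Lower in both were 1738, 53.0% of 3280 and 46.4% of 3747. The directions were opposite for 682 genes higher in recipient and lower in maternal cells and for 844 genes the other way. Late neutrophil granule genes were lower and DNA replication genes higher in pIUT in both, with maternal medians of -6.64 and 2.88, while the T-cell identity list had a maternal median of -1.19, or -0.63 with scaling by library totals.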

How the data were processed

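Recipient cells were sequenced in 1 pooled library for each treatment. The authors deposited estimated counts per gene, written by salmon by their file's name and not normalized, although the methods name featureCounts; the build was GRCm39 with GENCODE annotation. They were rounded to whole numbers. Gene names and positions came from a later GENCODE release of GRCm39, which matched 97.99% of identifiers. The authors also deposited MiXCR clonotype tables with a clone count (reads of a clonotype) and a clone fraction, its share of all receptor reads of that sample. There are no molecular identifiers, so that reads are not independent molecules.

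Of 52784 genes, 25066 had a count in at least 1 of 8 libraries and entered TMM normalization (edgeR 4.0.16, R 4.3.3). Moderated log2 fold changes were taken from exactTest with a fixed dispersion of 0.4, as in the study's methods, and a prior count of 0.125 (the default); its p values were not used. Folds are ratios of CPM with exact conditional binomial intervals at 95%. All 8 columns of the table belong to a sample, and 0 were left out. The calculation was tested on simulated data. Tables and figures were made with matplotlib 3.10.9, scipy 1.17.1, pandas 2.3.3 and numpy 2.4.6 under Python 3.11.15.

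Clonotypes are lines of the deposited table, and the chain is that of the best V hit, or of the best J hit for joins. The bases between V and J were counted between the aligned ends, an overlap as 0.

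The 46 gene lists hold 503 entries, of which 11 had no row. Genes named are, in each list, among the 3 of highest mean CPM and the 2 of largest fold change. To these were added the 10 highest and 10 lowest protein-coding genes with at least 100 counts (no receptor segments or unnamed genes). Itgax, Foxp3, Dntt, Xist and Y-linked genes complete the set. Other members named are examples chosen after their values were seen. The clonotypes shown are, per library, the 3 with most reads, and the 5 shared ones with the highest smaller clone fraction. The libraries and lists were chosen with earlier results of these data known. Alternatives were other scalings (library size, DESeq2 1.42.0 size factors, TMM of the 2 libraries), count minimums of 3 and 50, prior counts of 2 and 5, and other definitions of a clonotype, its chain and its sharing. Some list members are counted but not reported here by name.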

Additional observations from a re-analysis of the deposited data

Results flagged for a closer look

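For 9 gene lists with at least 5 members tested in both comparisons, the median log2 fold change of pIUT against mIUT was at least 2-fold in one direction in recipient cells and at least 2-fold in the other in trafficked maternal cells. The difference between the comparisons was not tested, since each rests on 1 library a side. The maternal values all rest on the library labelled maternal DC control mIUT, whose H2-Ea count (311, beside 498 of H2-Eb1) goes against its label. Scaling by library totals, an alternative chosen after seeing the data, adds 0.56 to the maternal values, which takes the T-cell identity list to -0.63 and the macrophage list to -0.97, below 2-fold. The T-cell identity list stood at 3.26 in recipient and -1.19 in maternal cells, regulatory T-cell and checkpoint genes at 3.22 and -2.77, and cytotoxic granule genes at 2.78 and -2.08. Mature B-cell genes stood at 1.08 and -2.06, early B-cell genes at 1.91 and -2.60, and immunoglobulin constant regions with J chain at 2.09 and -4.35. The MHC class II list was at 1.69 and -2.28, chemokine receptors and homing at 1.59 and -2.28, and tissue-resident macrophage genes at 2.69 and -1.53.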

How the results depend on the processing

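Scaling by library size alone raised every log2 fold change by 0.71, which left 2694 genes at least 2-fold lower and 7615 higher, and moved the share of higher among called genes from 57.1% to 73.9%; the TMM factors of 0.689 and 1.13 are the cause by construction. Of the 218 genes named by rule and tested, 183 passed 2-fold; under scaling by library size 13 of these, all lower in pIUT, no longer did, 10 others passed, and 168 values left their counting interval. Under the other scalings and prior counts 0 calls were lost, and 0 called genes changed direction under any of them. The ratio of clonotypes was 3.71 at equal numbers of receptor reads and 2.60 for BCR chains alone. That of Hill numbers was 3.84 at equal numbers of receptor reads, 4.60 at order 2 and 1.96 for BCR chains alone. The TRB share of pIUT was 76.3% with clonotypes merged by CDR3, 77.6% among productive clonotypes and 72.4% weighted by clone count. The other alternatives planned for the main counts, ratios and shares stayed within 1.5-fold or their interval. No leave-one-out analysis could be made with 1 library a side. No paired analysis was possible because the groups share only 1 replicate number. Genes near 3 counts and the 13 IGL, 21 TRG and 11 TRD clonotypes of mIUT are limited by depth.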
